A study of Mus musculus with 8 samples.

Results

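The choroid plexus and the ependyma line the brain ventricles, and the transcripts examined here are 40 genes known from those linings, 18 of choroid plexus epithelium and 22 of ciliated ependymal cells. They were chosen by gene symbol in the annotation of the arrays. A probe was found for 39 of the 40 genes, with 69 probes in all among the 56605 probes and 37074 gene names of the arrays. Of these genes, 17 belong to the choroid plexus (28 probes) and 22 to the ependymal cilia (41 probes). No probe carried the symbol of the antisense transcript Kcnj13os.

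RNA came from tissue holding the whole cerebral cortex and the striatum of 4 male BTBR/R mice (BTBRTF/ArtRbrc) and 4 male B6 mice (C57BL/6J), and each mouse had an array of its own. BTBR/R is an inbred strain that carries the T, Itpr3 tf and at mutations, and no mouse was treated. BTBR/R replicate 1 was aged 6 months and the other 7 mice 4 months. The strains came from different suppliers, and the B6 arrays filled 1 column of the slide while the BTBR/R arrays filled the other. Strain cannot be told apart from source or from position on the slide.

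The choroid plexus is a fringe of secretory epithelium that hangs into the ventricles and makes cerebrospinal fluid, loading it with carriers such as transthyretin. Ependymal cells form the ventricle wall itself and move the fluid with bundles of motile cilia, whose core of microtubule doublets is built from dyneins, radial spokes, tektins and a central pair. The transcription factor Foxj1 drives the motile cilia programme, and RFX factors bind a promoter element called the X-box in many cilia genes. Cortex and striatum border the lateral ventricle, where both linings are found. In RNA from bulk tissue, fewer cells of a type and less RNA per cell cannot be told apart.

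Values are given as the scaled signal, which is the log2 processed signal of a probe minus the 75th percentile of its array, so that 0 is the 75th percentile and 1 unit is 2-fold. A gene is represented by its brightest probe, and a probe was detected on an array when the scanner software marked it as well above background. Of the 17 choroid plexus genes, 12 were detected on all 8 arrays, F5 was detected on all 4 B6 arrays and 1 BTBR/R array, and Slc4a5, Tmem72, Lmx1a and Cldn2 were detected on fewer B6 arrays. Of the 22 ependymal genes, 14 were detected on all 8 arrays, 4 (Cdhr3, Rsph4a, Hydin and Mlf1) on all B6 arrays but not on all BTBR/R arrays, and 4 (Dydc1, Spag16, Spag17 and Ak7) on 1 array of each strain or on none. The BTBR/R arrays had a higher detection limit, since the lowest signal of a detected probe was 36.1 to 47.1 there and 14.5 to 17.8 on the B6 arrays. The tissue markers fixed for comparison were present, with 8 of 8 cortical genes and 8 of 8 striatal genes detected on all 8 arrays and SDs of at most 0.21 within either strain.

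Promoter sequences were looked up first, because many cilia genes are known to hold the X-box, which was not used to choose the ependymal genes. RefSeq promoters of 300 bases, of which 250 lie before the start (build GRCm38.p6, a B6 genome), were at hand for 18 of the 22 ependymal genes and 13 of the 17 choroid plexus genes with a probe. The X-box letters GTTGCC occurred on either strand, with any overlap counted, in 13 of the 18 ependymal genes and 2 of the 13 choroid plexus genes, Aqp1 and Otx2. Per start site that was 61.9% of 21 ependymal promoters and 15.8% of 19 choroid plexus promoters, beside 12.5% of all 32851 promoters. The letters TAATCC, which OTX factors recognize, occurred in 1 gene of each group, Mlf1 and Otx2, beside 7.06% of all promoters. Of the 5 ependymal genes without GTTGCC, Tmem212 and Dydc2 had signals above background and a strain difference, Mia had a signal above background, and Spag17 and Ak7 were not detected. A match is a run of letters and not a measured binding site. The 120 bases before the start are shown for 4 ependymal genes that hold the letters and for 2 that do not, with GTTGCC or its reverse complement GGCAAC in capitals.
Tekt1 promoter, chr11:72361883-72362002, minus strand: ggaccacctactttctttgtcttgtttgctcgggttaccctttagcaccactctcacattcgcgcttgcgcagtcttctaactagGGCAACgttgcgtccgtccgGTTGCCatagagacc
1110017D15Rik promoter, chr4:41507765-41507884, minus strand: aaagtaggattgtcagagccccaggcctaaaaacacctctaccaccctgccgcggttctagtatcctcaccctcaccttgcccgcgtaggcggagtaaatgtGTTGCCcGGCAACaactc
Dynlrb2 promoter, chr8:116504895-116505014, plus strand: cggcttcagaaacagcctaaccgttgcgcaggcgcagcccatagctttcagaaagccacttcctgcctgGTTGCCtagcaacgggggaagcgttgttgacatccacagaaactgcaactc
Fam183b promoter, chr11:58801961-58802080, minus strand: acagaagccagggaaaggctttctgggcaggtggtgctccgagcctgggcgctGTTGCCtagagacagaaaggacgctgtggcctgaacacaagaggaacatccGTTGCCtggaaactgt
Tmem212 promoter, chr3:27896369-27896488, minus strand: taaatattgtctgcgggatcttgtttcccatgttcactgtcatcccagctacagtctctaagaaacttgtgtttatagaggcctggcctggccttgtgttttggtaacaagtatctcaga
Dydc2 promoter, chr14:41073038-41073157, minus strand: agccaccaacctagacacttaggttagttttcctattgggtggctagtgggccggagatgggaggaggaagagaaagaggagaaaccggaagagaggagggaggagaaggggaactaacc

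In Tekt1 the letters began 35 and 15 bases before the start, in 1110017D15Rik 18 and 11 bases before it, in Dynlrb2 51 bases before it and in Fam183b 67 and 16 bases before it. Tekt1 and 1110017D15Rik each had another annotated start whose promoter lacked the letters. The BTBR/R sequence of these promoters was not analysed here.

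Most choroid plexus transcripts with a signal above background varied widely between mice of the same strain, Ttr the most. Ttr, which encodes the thyroid hormone and retinol carrier transthyretin, had scaled signals of 4.74, 4.39, 3.19 and 0.07 in B6 replicates 1 to 4 and of 1.66, 4.06, 3.80 and 3.46 in BTBR/R replicates 1 to 4. B6 replicate 4 and BTBR/R replicate 1 stood below the other 6 mice, and the strains overlapped. The range was 25.5-fold within B6 and 5.28-fold within BTBR/R. The strain difference was 0.15 (SE 1.08, n = 4 per strain) with a 95% interval from -2.39 to 2.69 (limma adjusted p = 0.93), which does not show that the strains had like amounts. Without B6 replicate 4 the difference was -0.86 and did not pass either. The other Ttr probe ranged in the same mice, with an SD of 2.24 in B6 and 1.16 in BTBR/R. The 2 Ttr probes had the sixth and the fourth largest SD within B6 among the 28547 probes detected on all 8 arrays.

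Folr1, the folate receptor that carries folate into the cerebrospinal fluid, had scaled signals of -0.27, -0.51, -1.32 and -2.99 in B6 mice and of -2.34, -0.95, -1.16 and -1.37 in BTBR/R mice. The lowest mice were again B6 replicate 4 and BTBR/R replicate 1. The transcription factor gene Otx2 gave -1.23, -2.25, -2.78 and -3.77 in B6 mice and -2.99, -1.97, -2.73 and -2.79 in BTBR/R mice. Both genes had their highest B6 value in replicate 1 and their highest BTBR/R value in replicate 2, and the strains overlapped for both. The strain difference was -0.18 (SE 0.62, adjusted p = 0.84) for Folr1 and -0.11 (SE 0.52, adjusted p = 0.89) for Otx2.

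Among membrane proteins of this epithelium, the prolactin receptor gene Prlr had scaled signals of -1.43, -2.39, -2.83 and -4.03 in B6 mice and of -3.10, -2.37, -3.10 and -3.39 in BTBR/R mice. The co-receptor gene Kl (Klotho) gave -1.65, -2.05, -2.69 and -3.53 in B6 mice and -2.84, -2.17, -2.37 and -2.37 in BTBR/R mice. The chloride channel gene Clic6 gave 0.24, -0.24, -0.59 and -1.05 in B6 mice and -0.30, -0.30, -0.35 and -0.50 in BTBR/R mice. Within B6 the same 2 mice were highest and lowest for all 3 genes, whereas the 4 BTBR/R mice were close together for Clic6 (SD 0.09, against 0.54 in B6). Strain differences were -0.32 (SE 0.53) for Prlr, 0.04 (SE 0.39) for Kl and 0.05 (SE 0.25) for Clic6, with limma adjusted p of 0.67, 0.95 and 0.91.

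Sostdc1, a secreted antagonist of BMP and Wnt signalling, had scaled signals of -2.16, -2.66, -3.02 and -4.23 in B6 mice and of -2.80, -1.23, -1.50 and -1.78 in BTBR/R mice. Of the BTBR/R mice, 3 lay above every B6 mouse, and BTBR/R replicate 1 lay within the B6 range. The difference of 1.19 (SE 0.51, 95% interval -0.0019 to 2.38 before adjustment) did not pass (adjusted p = 0.10) and passed under 2 of 21 alternative settings. These were without BTBR/R replicate 1 (1.51, adjusted p = 0.0495) and without both that mouse and B6 replicate 4 (1.11, adjusted p = 0.025), whereas the difference was 0.79 (adjusted p = 0.19) without B6 replicate 4 and 0.99 (adjusted p = 0.22) without BTBR/R replicate 2. The water channel gene Aqp1 had scaled signals of -1.86, -2.35, -2.81 and -2.74 in B6 mice and of -4.03, -2.69, -2.05 and -2.69 in BTBR/R mice. BTBR/R replicate 1 was the lowest of the 8 mice for Aqp1, and the strain difference was -0.43 (SE 0.43, adjusted p = 0.47), which was -0.04 without that mouse and -0.70 without BTBR/R replicate 3, neither of them passing.

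**Figure D1:**
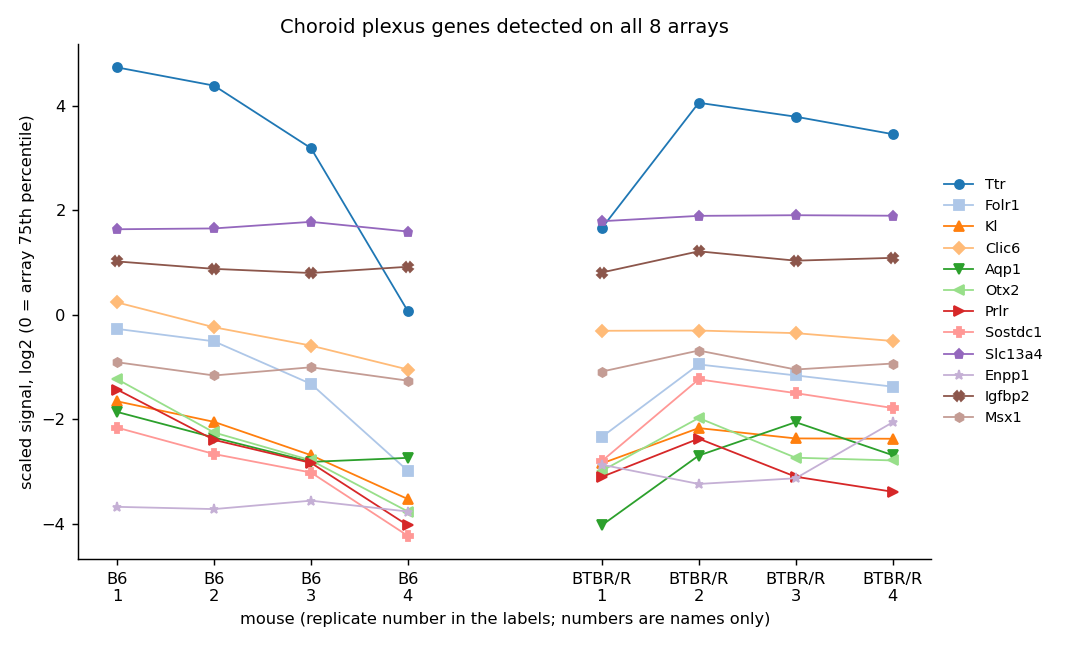
Scaled signal (log2, vertical axis) of the 12 choroid plexus genes detected on all 8 arrays, in each of the 4 B6 and 4 BTBR/R mice (horizontal axis), with 1 coloured line per gene, which joins mice of 1 strain for legibility only. Ttr, Folr1, Kl, Clic6, Otx2, Prlr and Sostdc1 are highest in B6 replicate 1 and lowest in B6 replicate 4, while Slc13a4, Igfbp2, Msx1 and Enpp1 have ranges of at most 0.35 between B6 mice.

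Across the 12 choroid plexus genes detected on all 8 arrays, B6 replicate 4 was the lowest B6 mouse for 10 and B6 replicate 1 the highest for 10. Those mice were the lowest and the highest for 25.6% and 26.2% of all probes detected on all 8 arrays. BTBR/R replicate 1 was the lowest BTBR/R mouse for 9 of the 12 genes (23.1% of all such probes) and BTBR/R replicate 2 the highest for 9 (30.1%). The mean scaled signal over the 12 genes was -0.46, -0.87, -1.24 and -2.06 in B6 mice and -1.51, -0.70, -0.89 and -0.95 in BTBR/R mice. BTBR/R replicate 1 is also the mouse of 6 months, and age cannot be told apart from other features of that mouse.

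An SD of 0.5 or more between the 4 B6 mice was found for 7 of these 12 genes, against 0.666% of all probes detected on all 8 arrays. Between the 4 BTBR/R mice it was found for 5 of the 12, against 1.95% of all such probes. The 7 genes were Ttr, Folr1, Kl, Clic6, Otx2, Prlr and Sostdc1, and all 7 were highest in B6 replicate 1, lowest in B6 replicate 4 and highest in BTBR/R replicate 2. The median SD of the 12 genes was 0.68 in B6 and 0.44 in BTBR/R, where the median over all such probes was 0.076 and 0.084. Without BTBR/R replicate 1 the BTBR/R median was 0.24, and without BTBR/R replicate 2 it was 0.22.

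Of the remaining choroid plexus genes detected on all 8 arrays, Slc13a4, Igfbp2 and Msx1 ranged little within either strain, while Aqp1 (SD 0.83) and Enpp1 (SD 0.53) ranged more widely in BTBR/R mice. The sulfate transporter gene Slc13a4 had scaled signals of 1.64, 1.66, 1.78 and 1.60 in B6 mice and of 1.79, 1.90, 1.91 and 1.90 in BTBR/R mice. The strains did not overlap, by a margin that was narrow, and the difference was 0.21 (SE 0.06, adjusted p = 0.024). It passed the adjusted p under 12 of 21 alternative settings, was 0.32 with spike-in scaling, and did not pass with median scaling (adjusted p = 0.078) or without any 1 of 6 mice, all but B6 replicate 3 and BTBR/R replicate 1 (adjusted p of 0.054 to 0.061). Igfbp2, a binding protein for insulin-like growth factors, differed by 0.13 (SE 0.09, adjusted p = 0.31), and the homeobox gene Msx1 differed by 0.15 (SE 0.11, adjusted p = 0.36). Their SDs were between 0.09 and 0.18 in both strains.

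Transcripts near the detection limit followed the same mice. Slc4a5, a bicarbonate cotransporter gene, was detected in 3 B6 mice and 1 BTBR/R mouse, with scaled signals of -3.18, -3.44, -4.47 and -7.46 in B6 mice and of -6.47, -3.35, -4.04 and -4.50 in BTBR/R mice. F5, the gene of coagulation factor V, gave -2.50, -2.96, -3.41 and -4.46 in B6 mice and -4.78, -3.70, -4.08 and -4.16 in BTBR/R mice. B6 replicate 4 and BTBR/R replicate 1 were the lowest of their strains for both. F5 differed by -0.85 (SE 0.43, adjusted p = 0.16) and passed the adjusted p under 2 of 19 alternative settings, without B6 replicate 4 (-1.23, adjusted p = 0.023) and without both that mouse and BTBR/R replicate 1. Without B6 replicate 1 it differed by -0.57 (adjusted p = 0.33), and with normexp background correction by -0.44 (adjusted p = 0.17). Tmem72 and the transcription factor gene Lmx1a were not well above background on any array, and the claudin gene Cldn2 was well above it on 1 B6 array.

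**Figure D2:**
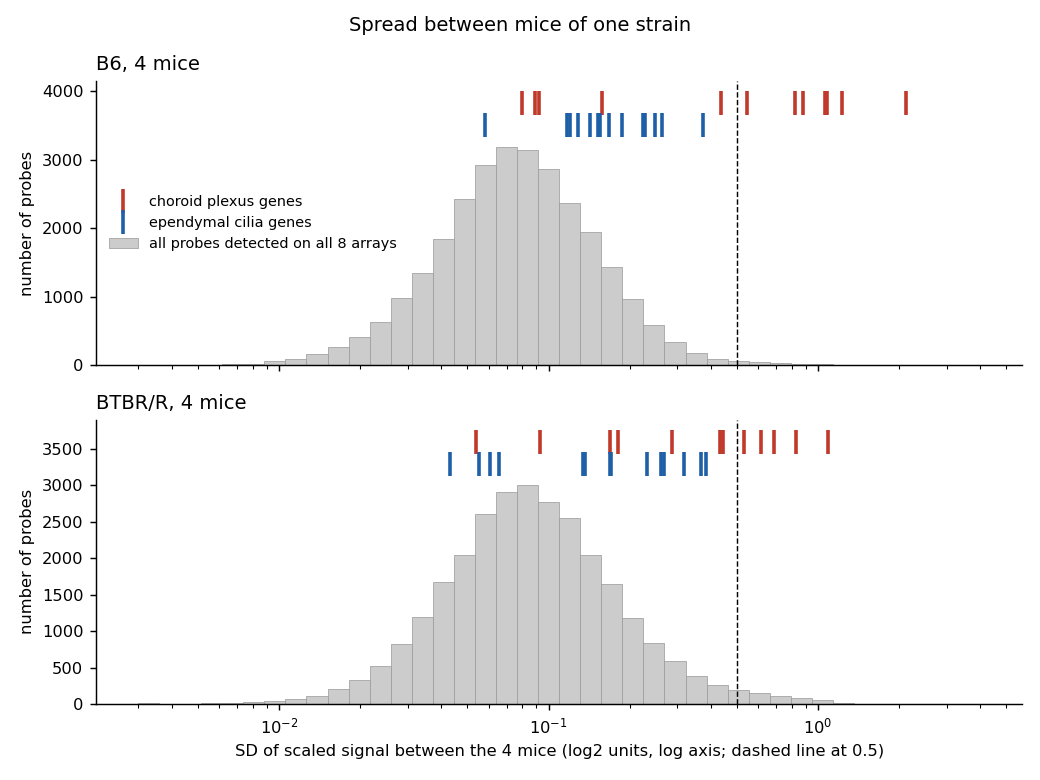
SD of the scaled signal between the 4 mice of a strain (log2 units, logarithmic horizontal axis) for all 28547 probes detected on all 8 arrays (grey bars, number of probes on the vertical axis), with red marks for the 12 choroid plexus genes and blue marks for the 14 ependymal genes. To the right of the dashed line at 0.5 lie 7 red marks in B6 and 5 in BTBR/R, and no blue mark in either strain.

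No choroid plexus gene was called between the strains, a call being an adjusted p below 0.05 together with a change of at least 2-fold. Over all probes 20.2% were called higher in BTBR/R mice and 2.25% lower, and over the probes detected on all 8 arrays 1.05% were called higher and 1.15% lower. The share over all probes depends on the processing, since normexp background correction left 0.408% of them as higher and 0.574% as lower, and quantile normalization left 0.961% and 2.93%. At an unadjusted p below 0.05 there were 2 of the 17 genes, both under 2-fold, and the methods' t-test, after Benjamini-Hochberg adjustment, also called 0. At any size, 2 of the 12 choroid plexus genes detected on all 8 arrays passed the adjusted p, both higher in BTBR/R mice (Slc13a4 and Enpp1), against 27.1% of all probes detected on all 8 arrays. The median SE of the strain difference was 0.41 for these 12 genes, against 0.067 over all probes detected on all 8 arrays. Without B6 replicate 4 and BTBR/R replicate 1, 1 of the 12 genes passed the adjusted p, which was Sostdc1. That choice of mice was made after their values were seen.

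Enpp1, a nucleotide pyrophosphatase gene, gave opposite differences at 2 of its probes. The probe detected on all 8 arrays had scaled signals of -3.68, -3.72, -3.56 and -3.77 in B6 mice and of -2.87, -3.24, -3.13 and -2.06 in BTBR/R mice. All BTBR/R mice were higher, by 0.86 (SE 0.25, adjusted p = 0.029), and the difference passed the adjusted p under 12 of 21 alternative settings. It did not pass without any 1 of the 4 B6 mice or without BTBR/R replicate 1 (adjusted p of 0.054 to 0.068). Another probe, at a more 3′ position of the same strand, averaged -2.96 ± 0.11 (SD, n = 4) in B6 mice and was not well above background in any BTBR/R mouse. Its BTBR/R signal was at least 2.34-fold lower (adjusted p = 2.0e-06), a bound taken from the lowest detected signal of each BTBR/R array, and the fitted difference was -3.49, or -1.48 with normexp background correction. The probe that was higher is placed by the array annotation over a stretch longer than the probe itself. Positions are on build mm9, with the first 30 of the 60 bases of each probe shown here because the probes of this gene differ in opposite directions.
Enpp1 probe A_51_P408584, chr10:24358048-24358107, minus strand: cagtgtgaagtgtttgactgtattccttcc
Enpp1 probe A_66_P111135, chr10:24361749-24365109, minus strand: ggcctgataacattgagagctgtacgcatg

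**Figure D3:**
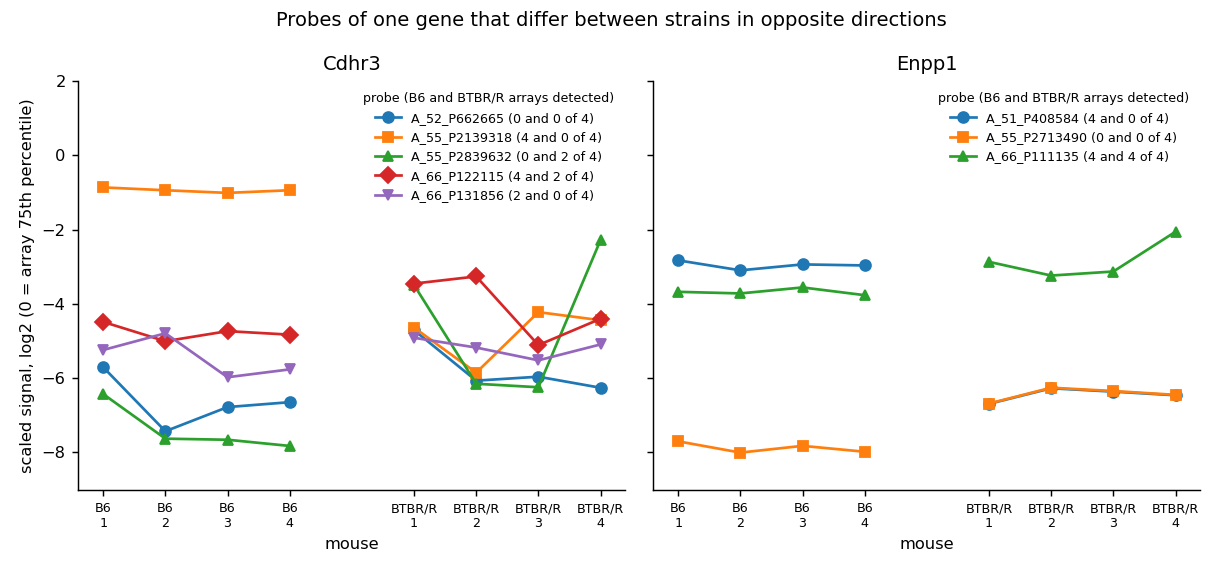
Scaled signal (log2, vertical axis) in each mouse (horizontal axis) for all 5 probes of Cdhr3 (left) and all 3 probes of Enpp1 (right), with the number of B6 and BTBR/R arrays on which each was detected. In each gene the probe that is detected in all B6 mice and no BTBR/R mouse is lower in all BTBR/R mice, while other probes are not.

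Other genes known from choroid plexus epithelium, 28 in a separate list of which 27 had a probe, varied in the same mice. Among the 20 detected on all 8 arrays, B6 replicate 4 was the lowest B6 mouse for 18 and BTBR/R replicate 1 the lowest BTBR/R mouse for 14. Kcne2, a potassium channel subunit gene, had the largest SD in B6 of these 20, with scaled signals of -1.42, -1.81, -2.85 and -4.87 in B6 mice and of -3.76, -1.97, -2.42 and -2.69 in BTBR/R mice. None of the 20 was called by limma or by the methods' t-test, and 3 had an unadjusted p below 0.05, each under 2-fold. Of the 20, 1 passed the adjusted p in each direction, Bmp7 higher by 0.46 and Col8a1 lower by 0.55, beside 27.1% of all probes detected on all 8 arrays. Bmp7 passed under all 21 alternative settings and Col8a1 under 12, with an adjusted p of 0.057 to 0.088 without any 1 of B6 replicates 1 to 3 or BTBR/R replicates 1 to 3. Of the 27 genes, only the iodide transporter gene Slc5a5 was called, lower by 1.17 (SE 0.14, adjusted p = 3.4e-04) and at least 1.98-fold lower as a bound, since it was detected in all B6 mice and no BTBR/R mouse. That is 1 of 27 called lower and 0 called higher, beside 2.25% and 20.2% of all probes (0.574% and 0.408% with normexp background correction, where Slc5a5 was lower by 0.47 and not called).

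Markers of neighbouring tissue are given beside these values. The mean scaled signal of 8 thalamic and habenular genes was 0.84 in B6 replicate 1 and between -0.53 and -0.44 in the other B6 mice, and it was 0.14 in BTBR/R replicate 2 and between -0.73 and -0.49 in the other BTBR/R mice. These genes were highest in B6 replicate 1 for 8 of 8 and in BTBR/R replicate 2 for 7 of 8, the mice in which the choroid plexus genes were also highest. B6 replicate 4, the lowest mouse for the choroid plexus genes, had a thalamic mean of -0.52, within the range of B6 replicates 2 and 3. All 12 leptomeningeal genes were detected on all 8 arrays, and their mean ranged from -0.08 to 0.33 in B6 and from -0.01 to 0.09 in BTBR/R. B6 replicate 3 was the highest B6 mouse for 11 of the 12, beside 22.7% of all such probes. It was also the highest B6 mouse for Slc13a4 and Enpp1. Among the markers of cortex and striatum, B6 replicate 1 was the lowest B6 mouse for 6 of 8 cortical and 7 of 8 striatal genes. That mouse was lowest for 28.5% of all probes detected on all 8 arrays. BTBR/R replicate 2 was the lowest BTBR/R mouse for 3 of 8 cortical and 6 of 8 striatal genes, beside 28.7%. The mean of either list ranged by at most 1.17-fold within a strain. The part of neighbouring tissue in the choroid plexus values was not tested.

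The ependymal genes detected on all 8 arrays varied less between B6 mice than Ttr and the choroid plexus genes that ranged with it, and several of them differed between the strains. None of the 14 detected on all 8 arrays had an SD of 0.5 or more in either strain. Their median SD was 0.16 in B6 and 0.17 in BTBR/R, above the 0.076 and 0.084 of all probes detected on all 8 arrays. Tekt1, a filament protein of the ciliary doublets, and Dydc2, a DPY30 domain gene, were called higher in BTBR/R mice, and the transmembrane protein gene Tmem212 was called lower. That is 2 of 14 called higher and 1 of 14 called lower, beside the 1.05% and 1.15% given above for probes detected on all 8 arrays. Counting all 22 genes, Dydc1 was also called higher and Cdhr3 lower, beside 20.2% and 2.25% of all probes. At any size 6 of the 14 passed the adjusted p, 4 higher and 2 lower, beside 27.1%.

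The single Tekt1 probe had scaled signals of -0.93, -1.03, -1.08 and -1.52 in B6 mice and of -0.01, -0.08, 0.06 and -0.01 in BTBR/R mice. All BTBR/R mice lay above all B6 mice, by a mean of 1.13 (SE 0.13, 2.19-fold, adjusted p = 2.6e-04). The call was kept under all 21 alternative settings, with changes from 1.001, which only just reaches 2-fold, without B6 replicate 4 to 1.24 with spike-in scaling. Dydc2 had scaled signals of -3.06, -3.81, -3.90 and -3.68 in B6 mice and of -2.36, -2.53, -2.29 and -2.57 in BTBR/R mice. The groups did not overlap, and the difference was 1.17 (SE 0.18, adjusted p = 0.0017). With normexp background correction it was 0.66 and under 2-fold. The paper also reports Dydc2 as higher in BTBR/R mice by qRT-PCR. Dydc1, the paralogous neighbour of Dydc2 on chromosome 14, was not well above background on any array, so that its call is no measure of the transcript.

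Tmem212 had scaled signals of -1.91, -2.21, -2.34 and -2.42 in B6 mice and of -3.04, -3.65, -3.64 and -3.90 in BTBR/R mice. All BTBR/R mice were below all B6 mice, by 1.34 (SE 0.20, 2.53-fold, adjusted p = 0.0012), and with normexp background correction the change was -0.78. Foxj1, the regulator of motile cilia, had scaled signals of -1.66, -1.94, -1.90 and -2.01 in B6 mice and of -2.32, -2.86, -2.65 and -2.91 in BTBR/R mice. The groups did not overlap here either, and Foxj1 was lower by 0.81 (SE 0.14, 1.75-fold, adjusted p = 0.0033), which is under the 2-fold of a call. The adjusted p of Foxj1 passed under all 21 alternative settings, with a smaller change of -0.49 after normexp background correction. The first 30 of the 60 bases of the probes behind these 4 differences are shown with their mm9 positions, since on the arrays each difference rests on 1 probe.
Foxj1 probe A_51_P456870, chr11:116192214-116192273, minus strand: ggagagactaatatagtgaatgtagttata
Tekt1 probe A_55_P2132024, chr11:72158231-72158290, minus strand: catccgcgcagaggccatctgctgatagga
Dydc2 probe A_55_P1992031, chr14:41862498-41862557, minus strand: ctcatctcatctaagagttaagagactaag
Tmem212 probe A_52_P707503, chr3:27765044-27765103, minus strand: tgttccccttaaattggccttatttgtggt

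The radial spoke head gene Rsph1 had scaled signals of -2.13, -1.90, -2.11 and -2.17 in B6 mice and of -1.11, -1.06, -1.16 and -1.20 in BTBR/R mice. Its difference of 0.94 (SE 0.07, 1.92-fold, adjusted p = 2.8e-05) fell just short of 2-fold, and it reached it with spike-in scaling (1.05) and, barely, without B6 replicate 2. Rsph4a, which encodes another radial spoke head protein, was detected in all B6 mice and 1 BTBR/R mouse and differed by -0.02 (SE 0.25, adjusted p = 0.97). The RIKEN gene 1110017D15Rik gave 0.55, 0.25, 0.28 and 0.27 in B6 mice and 1.40, 1.05, 1.09 and 1.05 in BTBR/R mice. It was higher in all BTBR/R mice, by 0.81 (SE 0.11, adjusted p = 6.5e-04), and its other probe was higher by 0.83 (SE 0.26, adjusted p = 0.040), a difference that passed under 10 of 20 alternative settings. Of the 8 settings that leave out 1 mouse, it passed only in the one without BTBR/R replicate 4, and it was 0.56 without B6 replicate 4 and BTBR/R replicate 1 together.

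**Figure D4:**
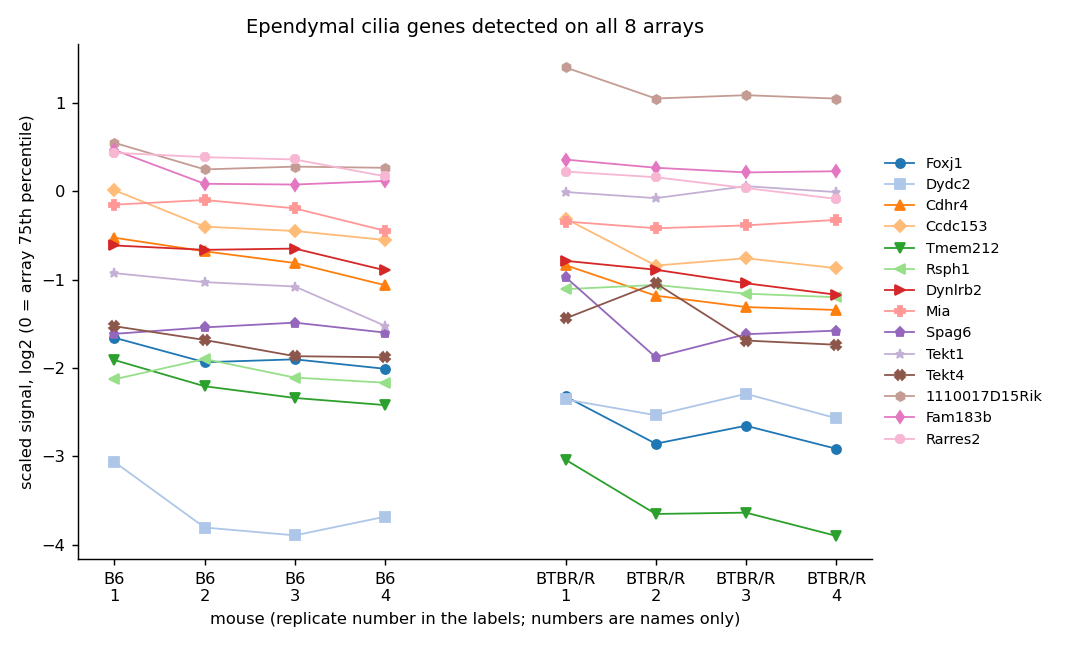
Scaled signal (log2, vertical axis) of the 14 ependymal genes detected on all 8 arrays, in each of the 4 B6 and 4 BTBR/R mice (horizontal axis), with 1 coloured line per gene, which joins mice of 1 strain for legibility only. Tekt1, Dydc2, Rsph1 and 1110017D15Rik are higher in every BTBR/R mouse, Foxj1 and Tmem212 are lower in every BTBR/R mouse, and the other 8 genes overlap between the strains.

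The other 8 ependymal genes detected on all 8 arrays did not pass the adjusted p, although 5 of them passed, as lower in BTBR/R mice, under some alternative settings. These were Rarres2 under 8 of 21 settings, Cdhr4 and Dynlrb2 under 6 each, Ccdc153 under 3 and Mia under 2, and 4 of the 8 passed without B6 replicate 4 and 4 without BTBR/R replicate 1. The genes of a further tektin and of a motor subunit, Tekt4 and the dynein light chain gene Dynlrb2, differed by 0.26 (SE 0.17, adjusted p = 0.26) and -0.27 (SE 0.10, adjusted p = 0.077). Spag6, a central apparatus gene whose probe RefSeq assigns to Spag6l, differed by 0.05 (SE 0.18, adjusted p = 0.85), and Fam183b by 0.08 (SE 0.10, adjusted p = 0.55). Differences were -0.40 (SE 0.15, adjusted p = 0.075) for the cadherin-related gene Cdhr4 and -0.35 (SE 0.17, adjusted p = 0.14) for the coiled-coil gene Ccdc153. The secreted proteins Rarres2 (chemerin) and Mia had differences of -0.25 (SE 0.09, adjusted p = 0.058) and -0.14 (SE 0.08, adjusted p = 0.20). The 95% intervals of these 8 genes before adjustment lay between -0.75 and 0.65, so that a 2-fold change in either direction was outside them.

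Cdhr3, another cadherin-related gene, also had probes with differences of opposite sign. It had no higher probe that was detected in all B6 mice and passed the adjusted p. Its brightest probe had scaled signals of -0.86, -0.94, -1.01 and -0.94 in B6 mice and of -4.64, -5.85, -4.22 and -4.44 in BTBR/R mice. It was well above background in all B6 mice and in no BTBR/R mouse, and its BTBR/R signal was at least 9.46-fold lower (adjusted p = 5.2e-05). That bound holds for the scaled processed signal, since with normexp background correction the fitted difference was -2.11, smaller than the bound, against -3.85. A second probe, detected in all B6 mice and 2 BTBR/R mice, gave -4.48, -5.00, -4.73 and -4.83 in B6 mice and -3.45, -3.26, -5.11 and -4.40 in BTBR/R mice. The strains overlapped at that probe, with a difference of 0.71 (SE 0.40, adjusted p = 0.21) that passed without BTBR/R replicate 3 (1.06, adjusted p = 0.031). The other 3 Cdhr3 probes had differences between 0.27 and 2.84 and were detected on at most 2 arrays of a strain, and the one at 2.84 was called. The probes with differences of 0.27, 0.71 and 2.84 are annotated to the RefSeq transcript of Cdhr3, whereas the brightest probe is annotated to another sequence. The brightest and the second probe lie on the minus strand of chromosome 12, where the first 30 of their 60 bases are as follows (mm9 positions).
Cdhr3 probe A_55_P2139318, chr12:33735669-33735728, minus strand: cttgagttgctcttgccactgccgagacct
Cdhr3 probe A_66_P122115, chr12:33718663-33718722, minus strand: gaagatgactcgtggaatgaaatacatttg

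Hydin, a central pair gene, was detected in all B6 mice and no BTBR/R mouse, with scaled signals of -4.00 to -4.08 and -4.15 to -4.60, and its difference of -0.27 (SE 0.10) did not pass (adjusted p = 0.063), though it did under 4 of 19 alternative settings, and with normexp background correction it was -0.02. Mlf1 was detected in all B6 mice and in BTBR/R replicate 1, and differed by -0.36 (SE 0.26, adjusted p = 0.31). Without BTBR/R replicate 1 the Mlf1 difference was -0.62 and passed (adjusted p = 0.014), and with normexp background correction it was -0.01. The brightest probes of the central apparatus genes Spag16 and Spag17 and of the adenylate kinase gene Ak7 were not well above background in 3 or 4 mice of each strain. Of the 30 probes that were not the brightest of their gene, 8 were called, 7 higher and 1 lower, beside 20.2% and 2.25% of all probes. Among them were 6 that were not detected on any array, and all 6 were higher in BTBR/R mice. These 6 (of Prlr, Enpp1, Hydin, Spag16, Spag17 and Fam183b) are no measure of the genes, and the part of the higher detection limit of the BTBR/R arrays in them was not tested.

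**Figure D5:**
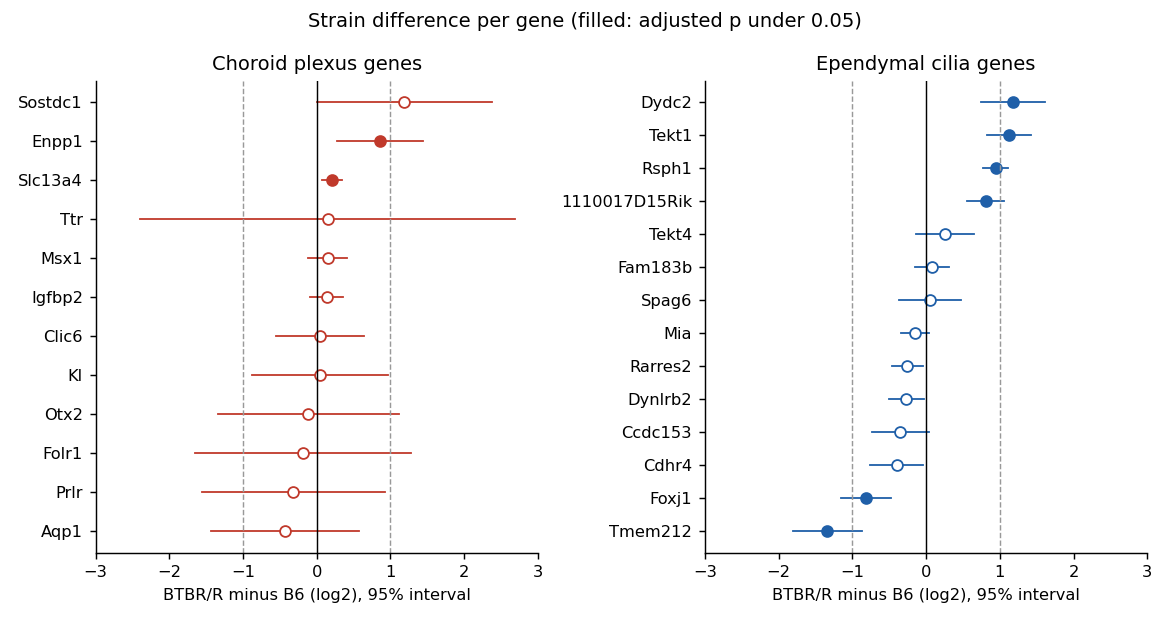
Strain difference (BTBR/R minus B6, log2 units, horizontal axis) with its 95% interval before adjustment for the 12 choroid plexus genes (left) and the 14 ependymal genes (right) detected on all 8 arrays. Filled points passed an adjusted p of 0.05, dashed lines mark 2-fold, and the widest interval, that of Ttr, reaches from -2.39 to 2.69.

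The ependymal genes also moved together between mice, within a much smaller range than the choroid plexus genes. B6 replicate 1 was the highest B6 mouse for 11 of the 14 genes detected on all 8 arrays and B6 replicate 4 the lowest for 10, beside 26.2% and 25.6% of all such probes. BTBR/R replicate 1 was the highest BTBR/R mouse for 9 and BTBR/R replicate 4 the lowest for 10, beside 21.8% and 22.3%. The mean scaled signal of the 14 genes was -0.90, -1.09, -1.15 and -1.26 in B6 mice and -0.82, -1.07, -1.08 and -1.17 in BTBR/R mice. In B6 the same mice were therefore highest and lowest for both groups of genes, whereas BTBR/R replicate 1 was highest for the ependymal genes and lowest for the choroid plexus genes.

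The range of the group mean was 3.04-fold within B6 and 1.75-fold within BTBR/R for the choroid plexus genes. For the ependymal genes it was 1.28-fold and 1.27-fold. The choroid plexus ranges rest largely on 1 mouse each. Without B6 replicate 4 the B6 means lay between -0.46 and -1.24, and without BTBR/R replicate 1 the BTBR/R means lay between -0.70 and -0.95. Without the same mice the ependymal means lay between -0.90 and -1.15 in B6 and between -1.07 and -1.17 in BTBR/R. Leaving out B6 replicate 4 and BTBR/R replicate 1, 11 of the 14 ependymal genes passed the adjusted p, 4 higher and 7 lower in BTBR/R mice, against 19.6% of all probes detected on all 8 arrays. This choice of mice too was made after their values were seen, and it pushes these differences one way. The mice left out were the lowest B6 mouse for 10 and the highest BTBR/R mouse for 9 of the 14 genes, which by itself moves BTBR/R minus B6 downward, so that the larger number of lower genes is no support for a difference.

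A separate list of 63 other motile cilia genes, 62 with a probe, was read for the same comparison. Of the 43 detected on all 8 arrays, 3 were called higher and none lower (beside 1.05% and 1.15%), where the methods' t-test called 2 and 0 and no gene was 2-fold lower at an unadjusted p below 0.05. At any size 6 passed higher and 9 lower (beside 27.1%). Dnah6, an axonemal dynein heavy chain gene, had scaled signals of -1.94, -2.05, -2.21 and -2.57 in B6 mice and of -0.22, -0.13, -0.27 and -0.37 in BTBR/R mice. Every BTBR/R mouse was higher, by 1.94 (SE 0.14, adjusted p = 2.8e-05). Mns1, a gene of the axoneme, was higher by 1.06 (SE 0.11, adjusted p = 1.9e-04), and under 2-fold with normexp background correction (0.78) and without B6 replicate 4 (0.96). The X-box factor gene Rfx2 had scaled signals of -4.10, -4.05, -4.15 and -4.15 in B6 mice and of -1.74, -3.08, -2.11 and -3.75 in BTBR/R mice. Rfx2 was higher in all BTBR/R mice but with a wide spread there, by 1.44 (SE 0.42, adjusted p = 0.029), and it was under 2-fold with normexp background correction (0.93). Its adjusted p passed under 13 of 21 alternative settings, but not without any 1 of the 4 B6 mice or without BTBR/R replicate 3 (adjusted p of 0.061 to 0.071). These Rfx2 values come from a probe annotated to a sequence that is not a RefSeq transcript. The probe on the RefSeq transcript of Rfx2 was not detected on any array and differed by 0.14 (limma adjusted p = 0.82).

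A further 2 cilia genes had a dimmer probe that was called and detected on all 8 arrays. Cfap54, a central apparatus gene, was higher by 2.47 (SE 0.21, adjusted p = 4.0e-05) at that probe, or by 1.49 with normexp background correction, and by 0.63 (SE 0.04) at its brightest (1.55 as the mean over its detected probes). Wdr52, listed on the arrays as Cfap44, was higher by 1.32 (SE 0.14, adjusted p = 2.1e-04) at that probe, or by 0.65 with normexp background correction, and differed by -0.01 (SE 0.37, adjusted p = 0.99) at its brightest, or by 0.38 (adjusted p = 0.049) without BTBR/R replicate 3. The X-box factor gene Rfx3 differed by 0.12 (SE 0.05, adjusted p = 0.086) at its brightest probe.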

How the data were processed

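RNA of 4 BTBR/R and 4 B6 mice was measured on 1-colour Agilent SurePrint G3 mouse arrays, with 1 array per mouse and no pooling, and mice were grouped by the strain in the labels. The authors deposited spot intensities from Agilent Feature Extraction 10.7.3.1, whose processed signal is background subtracted and spatially detrended with a surrogate for low signals. They also deposited log2 values from GeneSpring, and for 99.97% to 99.99% of the probes of an array these differed from the logged processed signal by 1 constant, to within 0.01.

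Control spots and 36 to 52 outlying spots per array were left out, spots of a probe were averaged, and the log2 processed signal was scaled by the 75th percentile of the non-control spots (738 to 818 before scaling). Strains were compared with limma 3.58.1 in R 4.3.3 (lmFit and eBayes) over 56605 probes, and every adjusted p in the text is limma's with Benjamini-Hochberg adjustment over all of them, with n = 4 per strain. In simulated data for this comparison over 56605 probes, 77 of 100 probes changed by 1.5 and 85 of 100 changed by 2 (log2) were called, as were 5 unchanged probes. Few probes were changed there, whereas 22.5% were called in the data, and the changed probes were drawn from all probes. These rates are therefore no measure for the choroid plexus genes, whose spread was wider. The number of arrays limits the precision, and the detection limit that of dim probes. The strain samples are separate mice.

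The members and the gene lists were chosen with earlier results of these data known. A gene is named by its brightest probe over the 8 arrays, other probes where they were called or moved the other way, and genes of the other lists where they were called and detected on all 8 arrays (Kcne2, Bmp7, Col8a1, Slc5a5 and Rfx3 were chosen after their values were seen). Bounds set each undetected array at its lowest detected signal. Lists of thalamic, habenular, leptomeningeal, cortical, striatal, hippocampal (5 of 8 genes detected on all 8 arrays, none of these called) and subventricular genes (10 of 10 detected, none called) were fixed alike, and among the thalamic and habenular genes Gng8 was called, lower by 1.69 (SE 0.20, and by 1.10 with normexp). Probe positions (mm9) and symbols come from the array annotation, which gives no exon or UTR for a probe. Promoters are from RefSeq. Python 3.11.15 served the remaining steps, with matplotlib 3.10.9, pandas 2.3.3 and numpy 2.4.6. Of the 21 alternatives, 8 left out a mouse each. The others were a replicate block, the mean over a gene's detected probes, 2 filters that drop dim probes, scaling to 7 spike-in probes, to detected probes or to the array median, quantile values, normexp (offset 50), limma with trend and robust, the methods' t-test, the GeneSpring values, and leaving out B6 replicate 4 together with BTBR/R replicate 1, which was added after seeing the data.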

Additional observations from a re-analysis of the deposited data

Results flagged for a closer look

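In 4 of 52 groups of 4 mice, 1 mouse stood apart from the other 3 by more than Dixon's 95% critical value for the ratio of its gap to the range. Chance alone gives about 1 in 20 such groups. Slc13a4 was 1.79 in BTBR/R replicate 1 and between 1.90 and 1.91 in the other BTBR/R mice. 1110017D15Rik was 0.55 in B6 replicate 1, against 0.25 to 0.28 in the other B6 mice, and 1.40 in BTBR/R replicate 1, against 1.05 to 1.09. Fam183b was 0.47 in B6 replicate 1 and between 0.08 and 0.12 in the other B6 mice.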

How the results depend on the processing

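No choroid plexus member was called in the main comparison. The count was 0 to 1 when 1 mouse was left out, with Sostdc1 called without BTBR/R replicate 1, F5 without B6 replicate 4 and Lmx1a, which no array detected, without B6 replicate 1, and it was 2 (Sostdc1 and F5) when B6 replicate 4 and BTBR/R replicate 1 were left out together. Over all probes tested, 22.5% were called in the main comparison, 0.982% with normexp, 3.89% with quantile normalization, 4.38% and 2.21% with the filters for detection in at least 1 strain and on all 8 arrays, 2.09% of genes with the mean over detected probes, and 20.7% to 23.7% in the other settings. The 5 calls among ependymal genes became 2 with normexp background correction, 3 among probes detected on all 8 arrays and 3 with the mean over the detected probes of a gene (fewer genes can be called under the last 2), and 5 to 6 when 1 mouse was left out. Among the other choroid plexus genes, 1 call became 0 with normexp and among probes detected on all 8 arrays, 1 to 2 when 1 mouse was left out, and 2 without both mice. Among the other cilia genes, 4 calls became 1 with normexp and 2 to 5 when 1 mouse was left out (2 without B6 replicate 4). The median SD of the choroid plexus genes in BTBR/R was 0.44, and it was 0.29 with normexp and 0.22 to 0.53 when 1 mouse was left out. That of the ependymal genes in BTBR/R was 0.17, and 0.10 to 0.20 when 1 mouse was left out, the lowest without BTBR/R replicate 1. In B6 the ranges when 1 mouse was left out were 0.46 to 0.82 and 0.11 to 0.19. The causes were not tested. Signs were followed for 56 probes, the brightest of each member and others named in the text, and 17 changed sign under some setting. Of these, Dydc1, which no array detected, had passed, and went from 1.29 to -0.094 with normexp. Only Spag16, hardly detected, and the brightest Wdr52 probe passed with the opposite sign, Spag16 going from 0.04 to -0.97 without BTBR/R replicate 2 and Wdr52 from -0.01 to 0.38 without BTBR/R replicate 3 (-0.16 to 0.38 leaving out 1 mouse) and to 1.32 with the mean over detected probes, which here is its other probe. At their farthest, and never passing with the opposite sign, Ttr went from 0.15 to -0.86 (its other probe to -0.96), Kl from 0.04 to -0.31, Slc4a5 from 0.05 to -0.89 and Kcne2 from 0.03 to -0.68 without B6 replicate 4, Folr1 from -0.18 to 0.15, Otx2 from -0.11 to 0.31 and Prlr from -0.32 to 0.10 without B6 replicate 1, Clic6 from 0.05 to -0.19 and Spag6 from 0.05 to -0.14 without B6 replicate 4 and BTBR/R replicate 1 together, Rsph4a from -0.02 to 0.12 without BTBR/R replicate 4, Cldn2 from 0.33 to -0.44 and Tmem72 from 0.86 to -0.02 with quantile normalization, and Lmx1a from 0.66 to -0.11 with normexp. With a replicate block Slc13a4, Enpp1 and Col8a1 no longer passed (adjusted p = 0.063, 0.069 and 0.11), while Ccdc153, Cdhr4, Rarres2 and Dynlrb2 did (0.013, 0.017, 0.027 and 0.038). Mice of the strains share replicate numbers as separate animals, and the deviations of same-numbered mice correlated at 0.0028, -0.070, -0.045 and 0.16, so that the numbers do not pair them. With a replicate block the calls numbered 0 among choroid plexus members, 5 among ependymal members, 1 among other choroid plexus genes and 3 among other cilia genes, and Ttr, Tekt1 and Rfx2 had an adjusted p of 0.93, 0.0042 and 0.055. Probes not well above background have only a bound on the level, which on the BTBR/R arrays lies higher.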
